A study of Mus musculus with 19 samples.

Results

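Among the 20436 genes counted in slices of mouse hippocampus, 7 genes of cholesterol and fatty acid synthesis were chosen by symbol and described in depth: Hmgcs1, Sqle, Fdft1, Scd1, Scd2, Srebf1 and Srebf2. The slices came from wild-type male mice of 28 to 42 days. They were incubated for 5 min with 100 µM DHPG, an agonist of group I metabotropic glutamate receptors that induces long-term depression, or with artificial cerebrospinal fluid as vehicle (basal), and all were then held in cycloheximide at 100 µg/ml, which stops elongating ribosomes. RNA-seq (4 basal and 5 DHPG libraries) measured RNA levels, and ribosome profiling (5 basal and 5 DHPG libraries) measured ribosome-protected fragments (RPFs), the pieces of mRNA that a ribosome covers. Each replicate pooled slices of several mice, so a value is an average over animals and over all cell types of the slice, and fewer cells of a type cannot be told apart from less RNA per cell. Basal and DHPG libraries of the same replicate number were compared as pairs. The DHPG RNA library of replicate 5 had no basal partner. All 12 markers of hippocampal pyramidal and granule cells passed the filter on low counts in both assays, with a summed RNA level of 4008 to 6466 CPM (a count scaled to the size of its library), as did all 12 markers of oligodendrocytes and all 12 of astrocytes, while 1 of 5 markers of choroid plexus did.

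Cells make cholesterol from acetyl-CoA through the mevalonate pathway. Hmgcs1 encodes the cytosolic HMG-CoA synthase near its start, Fdft1 encodes squalene synthase, which makes the first compound committed to sterols, and Sqle encodes squalene epoxidase, which oxidises squalene before it is closed into a sterol ring. Scd1 and Scd2 encode stearoyl-CoA desaturases of the endoplasmic reticulum, which put a double bond into saturated fatty acids. Srebf1 and Srebf2 encode the membrane-bound SREBP transcription factors, which are cut and enter the nucleus when sterols are low. SREBP2 acts mostly on cholesterol genes and the SREBP1 forms mostly on fatty acid genes. The adult brain makes nearly all of its own cholesterol, and oligodendrocytes and astrocytes are its main producers.

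The genes lie on 5 mouse chromosomes (mm10, GENCODE M21). Hmgcs1 is on chromosome 13 from 119690379 to 119708260 on the plus strand, Sqle on chromosome 15 from 59315077 to 59331192 on the plus strand, and Fdft1 on chromosome 14 from 63145150 to 63179578 on the minus strand. Srebf1 is on chromosome 11 from 60199089 to 60222581 on the minus strand, and Srebf2 on chromosome 15 from 82147181 to 82205379 on the plus strand. Scd1 and Scd2 lie near each other on chromosome 19, Scd2 from 44293674 to 44306864 on the plus strand and Scd1 from 44394455 to 44407879 on the minus strand.

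The Scd genes are close copies, which bears on how their fragments could be counted. The coding sequences of Scd1 (1068 bases) and Scd2 (1077 bases) were identical at 89.6% of aligned positions, and 26.7% of the 30-base windows of Scd1, about the size of an RPF, occur unchanged in Scd2. The study kept uniquely mapped reads, so fragments from these windows could be lost from either gene. In RNA, where reads are longer, 2.28% of the 60-base windows of the Scd1 transcript occur in the Scd2 transcript. The longest run shared by both coding sequences is 147 bases. It is printed below in capitals with 20 flanking bases on each side in lower case, as spliced coding sequence across exons 4 and 5 of each gene (Scd1 at chr19:44400321-44401825, minus strand, and Scd2 at chr19:44299682-44301265, plus strand).
Scd1: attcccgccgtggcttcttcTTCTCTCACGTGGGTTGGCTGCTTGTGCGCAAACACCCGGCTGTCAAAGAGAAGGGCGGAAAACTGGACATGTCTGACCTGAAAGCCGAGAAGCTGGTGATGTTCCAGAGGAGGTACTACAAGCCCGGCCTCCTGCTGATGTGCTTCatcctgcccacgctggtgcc
Scd2: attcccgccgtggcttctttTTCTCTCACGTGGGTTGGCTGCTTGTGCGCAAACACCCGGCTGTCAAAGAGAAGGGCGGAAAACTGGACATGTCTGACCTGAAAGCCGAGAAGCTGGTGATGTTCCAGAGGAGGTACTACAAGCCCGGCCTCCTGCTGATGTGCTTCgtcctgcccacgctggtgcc
The other copies, Scd3 and Scd4, stayed near the floor of detection: Scd3 had at most 1.54 CPM in RNA and 1.25 CPM in RPF, and Scd4 at most 1.03 and 1.86 CPM. The coding sequences of Srebf1 and Srebf2 were identical at 58.1% of aligned positions and shared no 30-base window.

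RefSeq promoters of GRCm38.p6, the assembly of mm10, were at hand for 3 of the 7 genes, of which Srebf1 has 3 annotated starts that gene counts cannot separate. The upstream sequences of Hmgcs1 and Srebf2 are shown because RPFs of these 2 genes varied together across libraries (Pearson's r = 0.78, described further on). Their RNA did not (r = -0.47). Both genes had their lowest RPFs in replicate 4, on which the r in RPF leans. In replicates 1, 2, 3 and 5 their RPFs changed in opposite directions after DHPG. A link of these sequences to either r was not tested. Capitals mark matches, on either strand, to a sterol regulatory element type (TCACNCCAC), to the CCAAT box, searched by the letters of its name, or to a GC box (GGGCGG). These motifs do not overlap each other in the printed windows. Hmgcs1 is shown for the 250 bases before its RefSeq start (chr13:119690101-119690350, plus strand), and Srebf2 for the 162 bases that end before its GENCODE start (chr15:82147019-82147180, plus strand).
Hmgcs1: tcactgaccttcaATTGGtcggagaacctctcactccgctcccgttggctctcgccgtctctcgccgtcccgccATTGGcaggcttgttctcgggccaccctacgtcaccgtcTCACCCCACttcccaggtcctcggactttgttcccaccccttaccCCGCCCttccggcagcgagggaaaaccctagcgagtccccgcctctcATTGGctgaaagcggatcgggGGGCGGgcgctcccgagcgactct
Srebf2: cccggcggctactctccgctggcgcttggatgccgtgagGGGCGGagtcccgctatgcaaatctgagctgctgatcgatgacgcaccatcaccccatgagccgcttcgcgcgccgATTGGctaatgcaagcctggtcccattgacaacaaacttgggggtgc
The window of Hmgcs1 held the sterol regulatory element type from position -137 to -129 before the start, 3 CCAAT matches that begin at -237, -176 and -45, and 2 GC boxes that begin at -92 and -24. Of 32851 RefSeq promoters, 1.05% held the sterol element type, 33.8% the CCAAT box and 32.7% the GC box. These shares were counted over the 250 bases before each start, a longer window than the 162 bases of Srebf2. The E box CACGTG, searched as well, occurs in 6.02% of promoters and in neither printed window. These are matches of letters only.

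Scd2 was the most abundant of the 7 in both assays. Levels between genes are given per length, as CPM per kb of transcript for RNA and per kb of trimmed coding sequence for RPF. In basal RPF libraries Scd2 stood at 1073 ± 115 CPM per kb (SD, n = 5), followed by Hmgcs1 at 383 ± 49.9, Fdft1 at 108 ± 9.66 and Scd1 at 63.1 ± 2.61. Srebf2 (47.2 ± 2.97) and Sqle (43.8 ± 5.36) came next and their ranges overlapped, and Srebf1 was lowest at 14.0 ± 1.08. All other neighbours in this order had ranges that did not overlap. Hmgcs1, Fdft1, Scd1 and Scd2 thus carried more RPFs per length than either SREBP gene in every basal library.

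The order was different in RNA. Scd2 had 118 ± 20.3 CPM per kb (SD, n = 4) in basal slices, Hmgcs1 93.2 ± 20.7, Srebf2 61.6 ± 20.1, Sqle 36.5 ± 5.33, Fdft1 30.3 ± 2.68 and Srebf1 28.3 ± 6.15. Each of these neighbours overlapped the next. Scd1 was lowest at 9.13 ± 0.307, below every library of Srebf1. Scd1 was thus the lowest RNA per length but ranked 4 of 7 in RPF, and Srebf2 ranked 3 in RNA and 5 in RPF.

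Per length, the ratio of RPF to RNA stood higher for each of the 5 enzymes than for either SREBP gene in every basal replicate. The margin was narrow between Sqle and Srebf2 in replicate 4 (log2 ratio 0.27 against 0.25). The ratio was taken as the log2 of RPF per kb over RNA per kb in basal replicates 1 to 4, which have both libraries. It was set beside 12635 genes, whose median was 0.84 with quartiles at -0.08 and 1.86. Scd2 had the highest log2 ratio of the members, with 2.91, 3.17, 3.23 and 3.52 in replicates 1 to 4 (mean 3.21 ± 0.25, SD), percentile 92.4 of all genes. Scd1 followed with 2.68, 2.71, 2.88 and 2.80 (2.77 ± 0.09, percentile 88.4). Both desaturases stood above the upper quartile of all genes in every replicate.

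Hmgcs1 had log2 ratios of 1.74, 2.15, 2.44 and 1.70 in replicates 1 to 4 (2.01 ± 0.35, percentile 77.8). Fdft1 had 1.88, 1.80, 1.80 and 1.83 (1.83 ± 0.04, percentile 74.5), the narrowest spread of the 7. Hmgcs1 and Fdft1 thus lay near the upper quartile. Sqle, the next enzyme of the same path, had 0.11, 0.23, 0.44 and 0.27 (0.26 ± 0.14, percentile 34.1), below the median of all genes in each replicate. The ratio is a density of ribosomes per length of coding sequence and not a measure of protein.

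The SREBP genes were at the other end. Srebf2 had log2 ratios of -0.24, -0.63, -0.67 and 0.25 in replicates 1 to 4 (-0.32 ± 0.43, percentile 19.7), and Srebf1 had -0.91, -1.17, -1.33 and -0.62 (-1.01 ± 0.31, percentile 7.89). For both, the ratio was highest in replicate 4. After DHPG the same order held in the mean, from 3.17 ± 0.32 for Scd2 and 2.61 ± 0.18 for Scd1 to -0.47 ± 0.22 for Srebf2 and -1.01 ± 0.29 for Srebf1 (SD, n = 4). Without division by length the percentiles of the mean basal ratio were 83.4 for Hmgcs1, 82.7 for Scd2, 75.3 for Scd1 and 64.5 for Fdft1. They were 38.9 for Sqle, 23.7 for Srebf2 and 12.7 for Srebf1. In the mean the SREBP genes thus stayed below the enzymes while Hmgcs1 came first. In basal replicate 4 alone, the ratio of Srebf2 (RPF 141 and RNA 181 CPM) was then above that of Sqle (58.1 and 80.2 CPM).

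**Figure D1:**
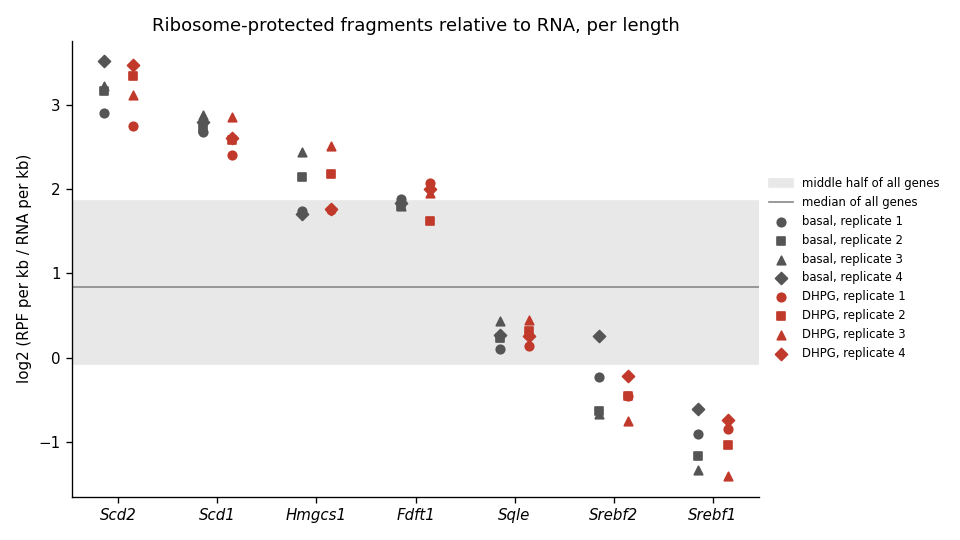
The y axis gives the log2 of RPF per kb over RNA per kb for each gene in replicates 1 to 4 (grey, basal; red, DHPG), with the median of all genes as a line at 0.84 and their quartiles as a band from -0.08 to 1.86. Scd2 and Scd1 sit above the band, and Srebf1 sits below it in every replicate.

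Each list of the wider pathways held genes below the lower and above the upper quartile of all genes in this ratio. The 22 enzymes from acetyl-CoA to cholesterol had a median log2 ratio of 1.11, from -1.30 for Tm7sf2, a sterol C14 reductase, to 4.07. The median of 26 genes of fatty acid synthesis, elongation and desaturation was 1.50, that of 19 genes of SREBP processing and sterol sensing 0.54, and that of 18 genes of sterol uptake, transport and removal 1.21. Named members of these lists included Insig1, which retains SREBPs in the endoplasmic reticulum, at 0.91 ± 0.20, and Fasn, the fatty acid synthase, at -0.51 ± 0.36 (SD, n = 4). Fasn thus lay below the lower quartile, unlike both desaturases that act after it.

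DHPG moved none of the 7 genes past the threshold of the test. The question here was whether 5 min of receptor activation altered the RNA, the RPFs or their ratio. In the quasi-likelihood test of edgeR, blocked by replicate number and adjusted over all genes by Benjamini-Hochberg, 0 of 7 members passed an adjusted p of 0.01 in RNA, where 0.00773% of 12935 genes did (1 gene). In RPF 0 of 7 passed an adjusted p of 0.05, where 0.22% of 13208 genes did (29 genes). In translation efficiency (TE, the change of RPF relative to RNA) 0 of 7 passed 0.05, where 0% of 12691 genes did. At an unadjusted p under 0.05 there were 2 members in RNA (Scd1 and Srebf2), 2 in RPF (Scd2 and Srebf1) and 1 in TE (Scd1), out of 1037, 1421 and 859 genes. The median log2 fold change of the 7 was 0.11 in RNA and 0.05 in RPF, against 0.0068 and 0.0031 over all genes tested.

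The largest difference was in the RNA of Scd1. Basal libraries of replicates 1 to 4 had 45.9, 44.7, 43.2 and 42.6 CPM, and DHPG libraries of replicates 1 to 5 had 58.7, 53.6, 49.5, 48.2 and 44.1 CPM. All 4 pairs were higher after DHPG, and the groups overlapped only through the DHPG library of replicate 5, which has no partner. The log2 fold change was 0.25 (SE 0.08, 95% confidence interval 0.08 to 0.42, adjusted p = 0.538 by edgeR). Higher RNA in all 4 pairs was seen in 8.67% of the genes tested, and Scd1 was the 1 member that showed it. RPFs of Scd1 were 61.5, 61.4, 66.9, 62.3 and 66.0 CPM in basal replicates 1 to 5 and 65.3, 67.2, 75.1, 61.3 and 63.4 CPM after DHPG. Here 3 of 5 pairs were higher, and the log2 fold change was 0.07 (SE 0.04, adjusted p = 0.578 by edgeR), or 0.035 without replicate 3. The TE of Scd1 was lower in 4 of 4 pairs, with a log2 change of -0.18 (SE 0.09, 95% confidence interval -0.36 to -0.01, adjusted p = 0.727 by edgeR). The TE of Hmgcs1 was higher in 4 of 4 pairs at a change of only 0.03 (SE 0.06, adjusted p = 0.953 by edgeR). The share of all genes with TE going one way, or with lower RNA, in every pair was not counted.

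Scd2, the desaturase that predominates in brain, had a smaller but steadier difference in RPF. Its basal RPF libraries had 952, 1161, 1249, 1018 and 1075 CPM, and its DHPG libraries 1005, 1220, 1281, 1162 and 1124 CPM, in replicates 1 to 5. Every pair was higher after DHPG, by 0.04 to 0.19 on the log2 scale, while the groups overlapped, since the means of the replicates ranged over 1.29 times. The log2 fold change was 0.09 (SE 0.03, 95% confidence interval 0.03 to 0.15, adjusted p = 0.226 by edgeR). RPFs higher in all 5 pairs were seen in 5.16% of the genes tested, and in 2 of 7 members, Scd2 and Srebf1. When counts were first corrected by replicate number with ComBat and then tested by DESeq2, Scd2 passed (log2 fold change 0.08, adjusted p = 2.43e-05). That setting does not count the degrees of freedom of the replicates. By DESeq2 with the replicate block in the model, Scd2 did not pass (0.09, adjusted p = 0.085). The RNA of Scd2 was 682, 693, 714 and 476 CPM in basal replicates 1 to 4 and 799, 644, 788, 560 and 642 CPM in DHPG replicates 1 to 5. It was higher in 3 of 4 pairs (log2 fold change 0.13, SE 0.07, adjusted p = 0.658 by edgeR, and 0.20 without replicate 2), and replicate 4 was the lowest in both treatments.

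The proportion of the desaturases to each other was compared within libraries. Per kb, RNA of Scd2 exceeded that of Scd1 by 12.8 ± 2.06 times in basal (SD, n = 4) and 12.0 ± 1.58 times in DHPG libraries (SD, n = 5). In RPF the ratio was 17.0 ± 1.53 and 17.3 ± 1.34 times (SD, n = 5 each). The treatments overlapped in both assays. The 147-base run and the other shared windows described above fall in both genes, and their part in these ratios was not tested.

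Among the cholesterol enzymes, Hmgcs1 showed no difference in either assay that exceeded its error. Its RNA was 422, 300, 252 and 318 CPM in basal replicates 1 to 4 and 401, 282, 250, 326 and 373 CPM in DHPG replicates 1 to 5. The pairs lay closely together, while replicate 1 was the highest and replicate 3 the lowest in either treatment. The log2 fold change was -0.03 (SE 0.07, 95% confidence interval -0.17 to 0.10, adjusted p = 0.934 by edgeR). RPFs of Hmgcs1 were 612, 577, 595, 449 and 645 CPM in basal and 587, 554, 622, 482 and 614 CPM in DHPG replicates 1 to 5. Pairs went both ways, 2 higher and 3 lower, and the log2 fold change was -0.0049 (SE 0.03, 95% confidence interval -0.07 to 0.06, adjusted p = 0.969 by edgeR). A change of over 0.07 in either direction lay outside this interval.

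Sqle had small differences too. Its RNA was 115, 107, 101 and 80.2 CPM in basal replicates 1 to 4 and 114, 104, 98.8, 84.0 and 106 CPM in DHPG replicates 1 to 5 (log2 fold change -0.0026, SE 0.07, adjusted p = 0.996 by edgeR). RPFs were 74.2, 75.3, 82.5, 58.1 and 72.9 CPM in basal and 76.0, 77.7, 81.4, 60.2 and 76.3 CPM in DHPG replicates 1 to 5 (log2 fold change 0.03, SE 0.04, adjusted p = 0.823 by edgeR, and 0.050 without replicate 3). Replicate 4 was the lowest of its group in all 4 groups, and within each pair the values differed by less than 5 CPM. For Fdft1, RNA was 122, 108, 119 and 101 CPM in basal replicates 1 to 4 and 117, 119, 105, 95.3 and 94.0 CPM in DHPG replicates 1 to 5, and 3 of 4 pairs were lower (log2 fold change -0.04, SE 0.07, adjusted p = 0.911 by edgeR). Without replicate 2 the value was -0.10, and without replicate 3 it was -0.00032. RPFs of Fdft1 were 145, 121, 134, 116 and 129 CPM in basal and 159, 118, 132, 123 and 140 CPM in DHPG replicates 1 to 5, with 3 of 5 pairs higher (log2 fold change 0.05, SE 0.04, adjusted p = 0.660 by edgeR, and 0.033 or 0.032 without replicate 1 or 5). The groups of Fdft1 overlapped in both assays, and its TE change of 0.10 (SE 0.07, adjusted p = 0.832 by edgeR) was the highest of the 7 with all replicates and 0.17 without replicate 2.

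The SREBP genes had positive but uncalled differences. RNA of Srebf2 was 287, 375, 409 and 181 CPM in basal replicates 1 to 4 and 347, 352, 421, 266 and 253 CPM in DHPG replicates 1 to 5. It was higher in 3 of 4 pairs, most in replicate 4, by 0.56 on the log2 scale, and lower in replicate 2. The log2 fold change was 0.19 (SE 0.08, 95% confidence interval 0.03 to 0.36, adjusted p = 0.573 by edgeR). This value leaned on single replicates: it was 0.074 (SE 0.075) without replicate 4 and 0.29 without replicate 2, and 0.069 (SE 0.22) without the replicate block. RPFs of Srebf2 were 160, 159, 168, 141 and 158 CPM in basal and 166, 168, 164, 151 and 169 CPM in DHPG replicates 1 to 5 (log2 fold change 0.05, SE 0.03, adjusted p = 0.597 by edgeR, and 0.083 without replicate 3). The estimate in RPF was smaller than in RNA, and the test of that difference, the TE change, gave -0.14 (SE 0.09, adjusted p = 0.793 by edgeR). It was -0.029 without replicate 4, -0.24 without replicate 2 and -0.014 without the block.

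RNA of Srebf1 was 114, 117, 159 and 96.6 CPM in basal replicates 1 to 4 and 122, 113, 168, 119 and 123 CPM in DHPG replicates 1 to 5, with replicate 3 the highest in both treatments (log2 fold change 0.11, SE 0.07, adjusted p = 0.727 by edgeR, and 0.046 without replicate 4). Its RPFs were 47.0, 40.5, 49.0, 49.0 and 48.4 CPM in basal and 52.7, 42.6, 49.4, 55.4 and 51.7 CPM in DHPG replicates 1 to 5. All 5 pairs were higher, by 0.01 to 0.18 on the log2 scale (log2 fold change 0.09, SE 0.05, 95% confidence interval 0.00015 to 0.18, adjusted p = 0.463 by edgeR). Per kb, Srebf2 exceeded Srebf1 by 2.15 ± 0.458 times in basal RNA (SD, n = 4) and by 3.39 ± 0.373 times in basal RPF (SD, n = 5).

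**Figure D2:**
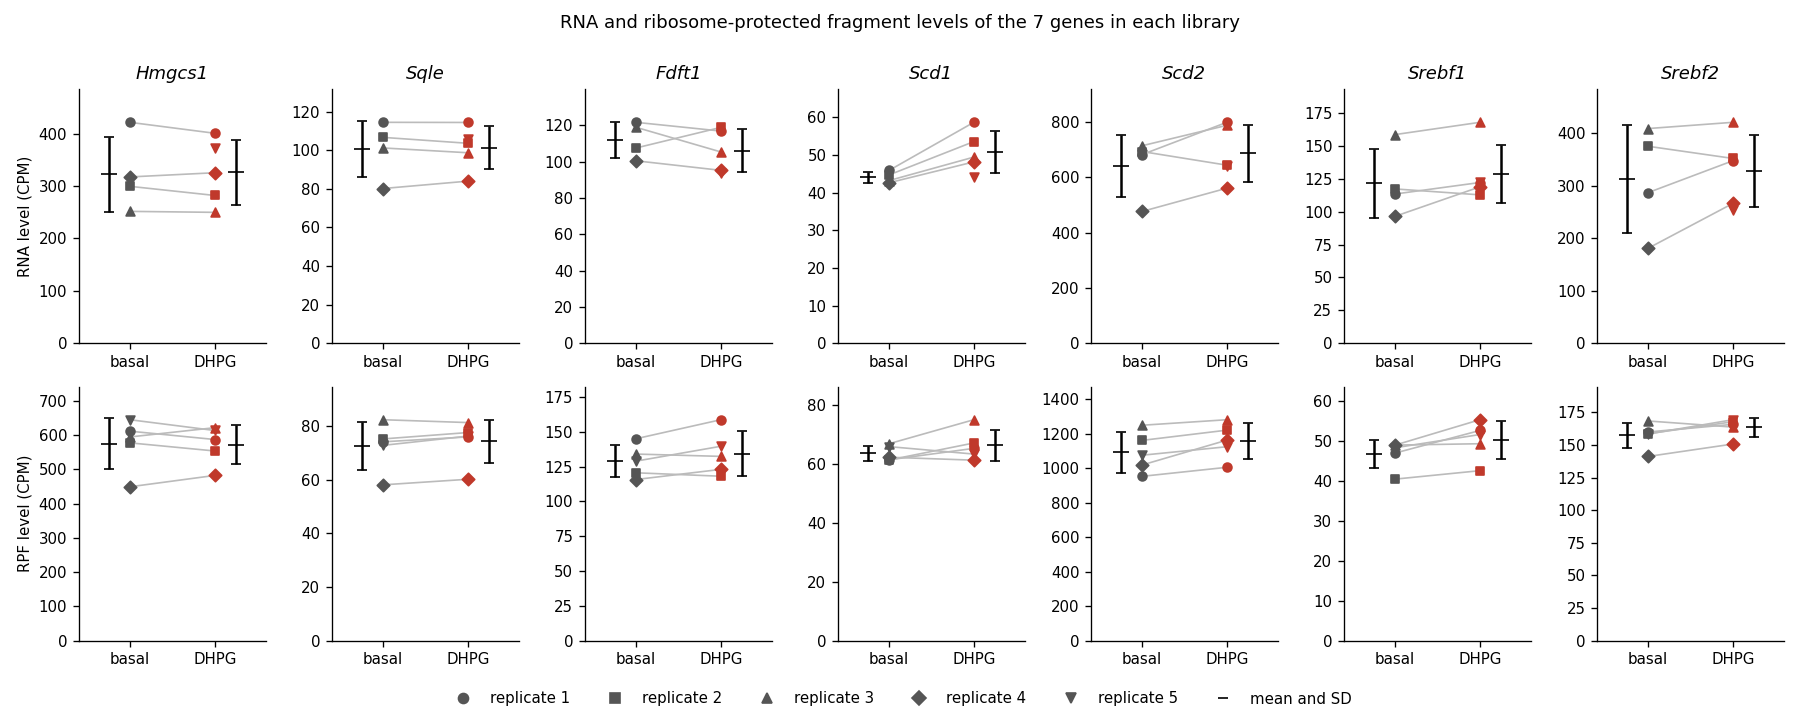
Each panel gives the level of a gene in CPM (y axis from 0, RNA above and RPF below) in basal (grey) and DHPG (red) libraries, a symbol for each replicate, lines between pairs, and the mean with SD beside them. Scd1 RNA is higher in all 4 pairs and Scd2 RPF in all 5, and the basal and DHPG points overlap in every panel.

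**Figure D3:**
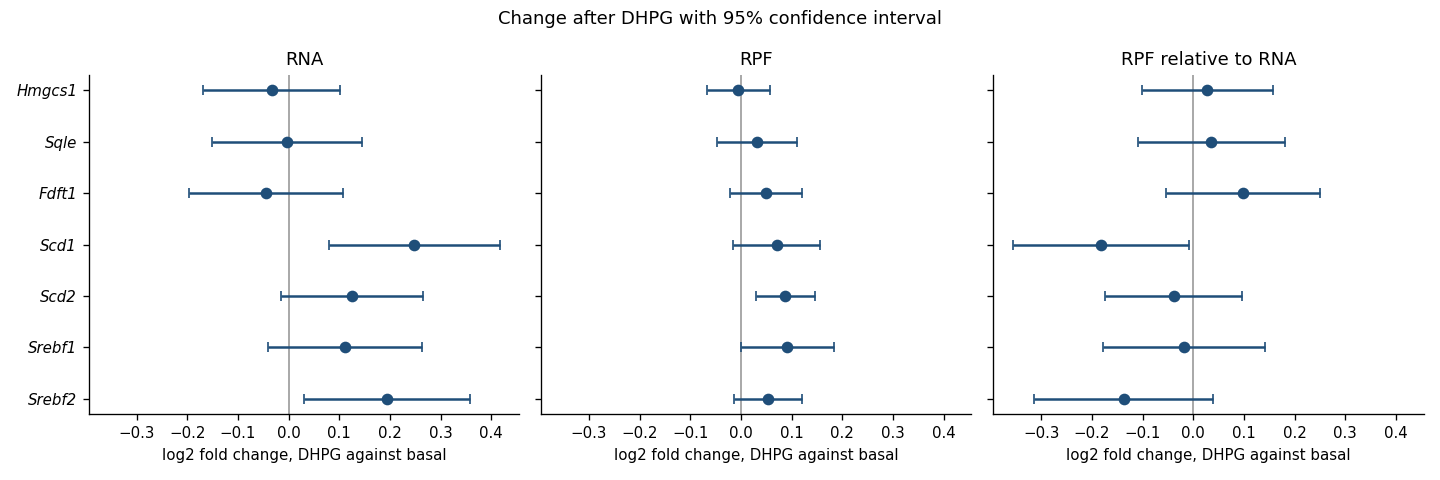
Points give the log2 fold change of DHPG against basal for RNA, RPF and RPF relative to RNA. Bars give a 95% confidence interval computed from edgeR's test. The intervals of Scd1 and Srebf2 in RNA, of Scd2 and Srebf1 in RPF and of Scd1 in RPF relative to RNA leave out 0, before adjustment over all genes.

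No gene of the wider pathways passed the test either. Over all genes tested, 52.1% were higher after DHPG in RNA and 51.4% in RPF. Of the 22 sterol synthesis enzymes, which include Hmgcs1, Sqle and Fdft1, 10 had a higher and 12 a lower RNA after DHPG (median log2 fold change -0.0037), and 16 had higher and 6 lower RPFs (median 0.03), with 0 called in RNA, RPF or TE. Pmvk, the phosphomevalonate kinase, had the lowest RNA fold change of the list (-0.25, SE 0.11, adjusted p = 0.591 by edgeR). Ebp, the sterol isomerase, had RNA lower in 4 of 4 pairs (-0.14, SE 0.09) and RPFs higher in 5 of 5 pairs (0.10, SE 0.05, adjusted p = 0.419 by edgeR). Its TE change was 0.24 (SE 0.09, adjusted p = 0.677 by edgeR). Fdps, which makes the farnesyl pyrophosphate that Fdft1 joins into squalene, had RNA lower in 4 of 4 pairs (-0.13, SE 0.07) and a TE change of 0.15 (SE 0.07, adjusted p = 0.718 by edgeR). Dhcr7, a late reductase of cholesterol synthesis, had an RNA fold change of 0.18 (SE 0.09), and Tm7sf2 an RPF fold change of 0.15 (SE 0.07, adjusted p = 0.403 by edgeR).

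Fatty acid genes, which include Scd1 and Scd2, had 18 higher and 8 lower RNAs of 26 tested (median 0.05), and 19 higher and 8 lower RPFs of 27 tested (median 0.04), again with 0 called. Ptplad1 (Hacd3), a dehydratase of fatty acid elongation, had RNA lower in 4 of 4 pairs (-0.19, SE 0.07, adjusted p = 0.545 by edgeR) beside an RPF fold change of -0.01 (SE 0.03). Its TE change was 0.18 (SE 0.06, adjusted p = 0.672 by edgeR). Ptplb (Hacd2), a dehydratase of the same family, had RNA higher in 4 of 4 pairs (0.22, SE 0.10). Acly, which makes cytosolic acetyl-CoA from citrate, had RPFs lower in 4 of 5 pairs (-0.09, SE 0.03, adjusted p = 0.317 by edgeR), and Elovl6, an elongase that acts before the desaturases, had RPFs higher in 5 of 5 pairs (0.10, SE 0.05, adjusted p = 0.440 by edgeR). Hsd17b12, the ketoacyl-CoA reductase of elongation, had a TE change of 0.16 (SE 0.08, adjusted p = 0.732 by edgeR), and Fasn had 0.06 (SE 0.07) in RNA and 0.03 (SE 0.03) in RPF.

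Of 19 genes of SREBP processing and sterol sensing, which include Srebf1 and Srebf2, 15 were higher and 4 lower in RNA (median 0.07), and 14 higher and 5 lower in RPF (median 0.06), with 0 called. Insig1 had the RPF fold change with the smallest p of this list (0.13, SE 0.05, adjusted p = 0.335 by edgeR). Mbtps2, the site-2 protease that releases SREBPs, had RNA higher in 4 of 4 pairs (0.21, SE 0.10), as did Nr1h2, the liver X receptor beta (0.16, SE 0.08). Of the genes of sterol uptake, transport and removal, 13 of 18 were higher in RNA (median 0.05) and 13 of 19 in RPF (median 0.02), with 0 called. Npc1, which exports cholesterol from lysosomes, had 0.18 (SE 0.07) in RNA and 0.09 (SE 0.03, adjusted p = 0.331 by edgeR) in RPF. The lipoprotein receptors Lrp1 and Lrp8 had RPF fold changes of 0.08 (SE 0.03) and 0.16 (SE 0.06), and Stard4, a sterol carrier, had RNA lower in 4 of 4 pairs (-0.34, SE 0.16). Gramd1a, which carries cholesterol from the plasma membrane to the endoplasmic reticulum, had RNA higher in 4 of 4 pairs (0.13, SE 0.07).

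Most of the 7 genes differed between replicates. By edgeR's test of all replicate terms together, 5 of 7 members differed between replicates in RNA (adjusted p under 0.01, all but Fdft1 and Scd1), where 35.2% of all genes tested did, and 6 of 7 in RPF (adjusted p under 0.05, all but Scd1), where 48.3% did. Without replicate 3 the count in RNA was 3 (Hmgcs1, Scd2 and Srebf2), and without replicate 4 it was 3 (Hmgcs1, Srebf1 and Srebf2). The share of all genes with a replicate left out is not given here. The widest range was that of Srebf2 RNA, where replicate 3 had a mean of 415 CPM and replicate 4 of 223 CPM, 1.89 times apart on the scale of mean log2 CPM (adjusted p = 1.20e-06 by edgeR). Its RPFs ranged over 1.14 times. Hmgcs1 RNA ranged over 1.64 times, highest in replicate 1 and lowest in replicate 3 (adjusted p = 3.96e-06 by edgeR), and its RPFs over 1.35 times, highest in replicate 5 and lowest in replicate 4 (adjusted p = 5.26e-09 by edgeR). RNA and RPF of Hmgcs1 thus did not have the same lowest replicate.

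Replicate 4 was the lowest in RNA for Sqle, Scd2, Srebf1 and Srebf2 and in RPF for Hmgcs1, Sqle, Scd1, Srebf2 and, level with replicate 2, Fdft1. It was the highest for Srebf1 in RPF, at 0.11 above the mean of the replicates on the log2 scale. The deviation of replicate 4 from the mean of the replicates was -0.30 on the log2 scale for Sqle in both assays, -0.35 for Scd2 RNA, -0.48 for Srebf2 RNA and -0.29 for Hmgcs1 RPF. In RPF the 22 sterol enzymes had a median deviation of -0.21 in replicate 4, with 1 of 22 above the mean of the replicates, and 19 of 22 (86.4%) differed between replicates, against the 48.3% of all genes. In RNA their median was -0.28 in replicate 4, with 4 of 22 above the mean. The other pathway lists exceeded that share in RPF too. It was 78.9% for sterol uptake, transport and removal, 66.7% for fatty acid genes and 63.2% for SREBP processing and sterol sensing. Their median deviations in replicate 4 were -0.12, -0.11 and -0.03 in RPF and -0.15, -0.19 and -0.05 in RNA.

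Markers of oligodendrocytes were low in replicate 4 as well. Their 12 genes had a median deviation in replicate 4 of -0.56 in RPF, with 0 of 12 above the mean, and -0.54 in RNA, with 2 of 12 above the mean. Their summed RPF level was 4738 and 5495 CPM in replicate 4 (basal and DHPG) and at least 7790 CPM in every other RPF library. The 12 astrocyte markers had a median deviation of -0.00 in RPF and -0.07 in RNA in replicate 4, and the 12 markers of pyramidal and granule cells 0.04 and -0.06. Markers of microglia had -0.21 in RPF and -0.32 in RNA, and those of oligodendrocyte precursors -0.34 and -0.58. The part of cell composition in the differences between replicates was not tested. After DHPG, the 12 oligodendrocyte markers had a median log2 fold change of 0.15 in RNA, with 12 of 12 above 0 and 0 called, and of 0.09 in RPF, with 9 of 12 above 0 and 1 called, where 0.22% of all genes were called. Other lists lay above 0 too. Precursor markers had 0.11 in RNA and 0.09 in RPF, with 6 of 6 above 0 in each, and microglia markers 0.10 in RPF, with 8 of 8 above 0, and -0.0030 in RNA, with 4 of 8. Astrocyte markers had 0.07 in RNA (9 of 12 above 0) and 0.06 in RPF (11 of 12), and those of pyramidal and granule cells 0.08 in RNA (11 of 12) and 0.02 in RPF (8 of 12). Endothelial and mural markers had -0.06 in RNA (3 of 8 above 0) and -0.13 in RPF (1 of 8). The part of these shifts in the values of the 7 genes was not tested.

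**Figure D4:**
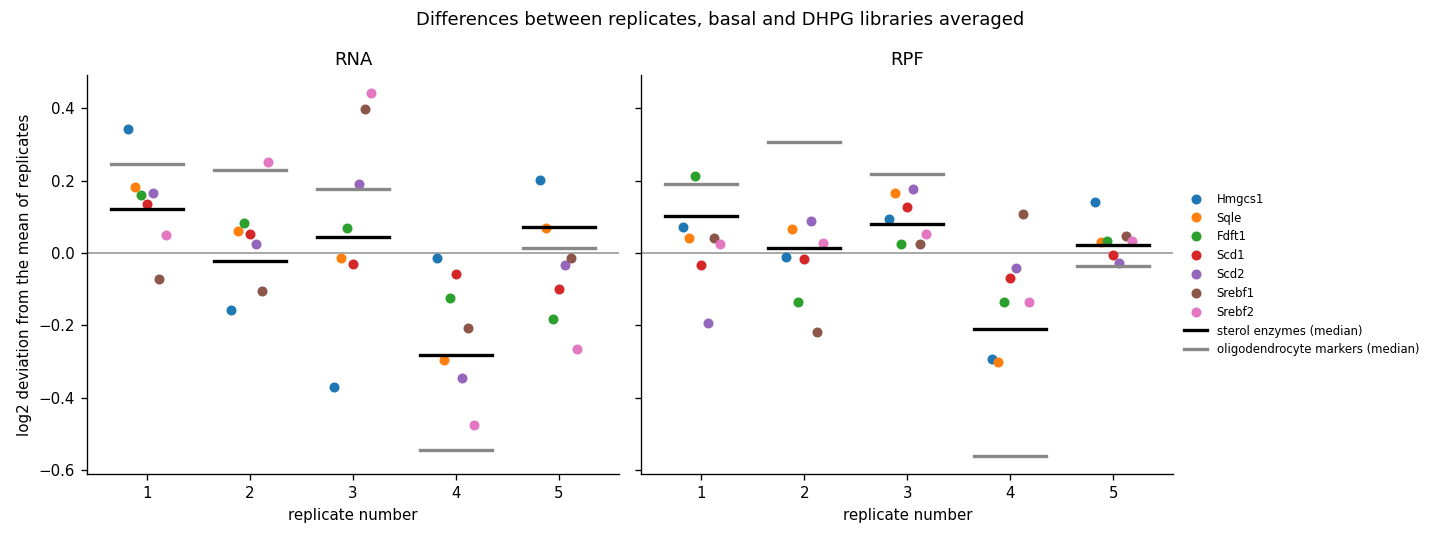
The y axis gives the log2 deviation of each replicate from the mean of the 5 replicates (points, the 7 genes; black bars, median of the 22 sterol synthesis enzymes; grey bars, median of the 12 oligodendrocyte markers), with basal and DHPG libraries averaged (replicate 5 RNA is DHPG alone). In replicate 4 the sterol enzymes lie at -0.28 in RNA and -0.21 in RPF, and the oligodendrocyte markers at -0.54 and -0.56.

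Within the 10 RPF libraries, levels of some members varied together. Pearson's r of log2 CPM, as a description over libraries that share replicates and batches, was 0.92 between Sqle and Srebf2, 0.85 between Hmgcs1 and Sqle and 0.78 between Hmgcs1 and Srebf2. RPFs of all 3 genes were lowest in replicate 4. There they deviated from the mean of the replicates by -0.29 (Hmgcs1), -0.30 (Sqle) and -0.13 (Srebf2) on the log2 scale. These r values lean on that replicate, and r without it is not given here. Over the 9 RNA libraries the same pairs had r of 0.57, 0.35 and -0.47. Scd2 went with Srebf2 in RNA (0.87) but less in RPF (0.37). The likeness between members was therefore not the same in the 2 assays.

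The genes most like each member in RPF differed in how far the likeness held in RNA. They were picked by the highest r among 13208 genes over 10 RPF libraries, so a lower r in RNA is expected from the choice alone. For Sqle they were Lpl, the lipoprotein lipase (r = 0.98 over 10 RPF and 0.62 over 9 RNA libraries), Cers2, a ceramide synthase (0.97 and 0.70), and Gpr17, a receptor of immature oligodendrocytes (0.96 and 0.89). For Hmgcs1 they were Cnp, a myelin enzyme (0.96 and -0.10), Epb4.1l2 (0.95 and 0.91) and Lage3 (0.94 and -0.48). For Fdft1 the first was Fdps, the enzyme just before it (0.95 and 0.47), followed by Gpr37l1 (0.93 and 0.39) and 2700049A03Rik (0.93 and -0.63). For Srebf2 they were Col11a2 (0.97 and 0.83), Ddr1, a collagen receptor (0.95 and 0.98), and Gm2a (0.94 and 0.94), so all 3 kept a high r in RNA.

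For Srebf1 the closest were Ccrn4l (0.95 and 0.51), Sfxn3 (0.94 and 0.76) and Trappc9 (0.94 and 0.88). For Scd2 they were Prss23 (0.97 and -0.57), Gpld1 (0.97 and 0.60) and Efcab14 (0.95 and 0.51). For Scd1, whose RPFs did not pass the test between replicates, they were Ankrd28 (0.91 and -0.10), Arf1 (0.89 and -0.47) and Tmem243 (0.88 and -0.08). None of the 3 genes nearest to Scd1 or to Scd2 was the other desaturase, whose r with it was 0.59 in RPF and 0.49 in RNA.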

How the data were processed

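Ribosome profiling and RNA-seq libraries of hippocampal slices that retained CA3 were analysed (19 samples, replicates 1 to 5). The authors trimmed adapters, removed rRNA and tRNA reads, kept uniquely mapped reads on mm10 and used molecular identifiers against duplicates. They deposited RSEM's expected counts of each gene, rounded and not normalized. RPFs were counted on RefSeq coding sequences without the first and last 30 bases, RNA on whole transcripts. The 12 columns of replicates 6 to 8 belong to no sample here and were not used. The library totals of 4870813 to 7793244 counts in RNA and 5692064 to 22092434 in RPF set the counting error of low genes.

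Counts were tested with edgeR 4.0.16 in R 4.3.3: TMM normalization, filterByExpr, the quasi-likelihood F test in a model blocked by replicate number, and Benjamini-Hochberg adjustment across the tested genes. Every gene's adjusted p is from edgeR unless DESeq2 is named. TE was the interaction of library type and treatment over all 19 libraries. Same-numbered libraries deviated together from their group means (r of 0.31 to 0.74 for the RNA pairs and 0.26 to 0.52 for the RPF pairs), so the numbers pair the samples. Log2 CPM used a prior count of 2. Lengths came from the longest coding transcript in GENCODE M21 less 60 bases for RPF, for 98.8% of genes. Promoter sequences are from RefSeq (GRCm38.p6). Motif and sequence comparisons used Python 3.11.15 with Biopython 1.88. The 5 edgeR comparisons were tested on simulated data.

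The 7 members and the gene lists were chosen with earlier results of these data known. Named besides the members were, per pathway list, the 2 genes with the smallest p in each assay and any called gene, known SREBP targets such as Insig1 and Fasn, and the 3 genes most like each member in RPF. Some genes that this rule names are not reported here. Alternatives were DESeq2's size factors, no filter, no block, DESeq2 1.42.0 with the block, ComBat (sva 3.50.0) with DESeq2, a prior count of 0.5, median transcript lengths, and each replicate left out. In the main tests, P-values for DHPG are judged against the spread left within pairs after the replicate block. Those between replicates set the differences between pools against the same spread.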

Additional observations from a re-analysis of the deposited data

Results flagged for a closer look

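Each of the 28 groups of a gene, assay and treatment was screened for a library far from the others (Dixon's test at 95%), where chance gives about 1.4, and 4 were found. Sqle RPF was 60.2 CPM in DHPG replicate 4, below the other 4 DHPG libraries at 76.0 to 81.4 CPM. Scd2 RNA was 476 CPM in basal replicate 4, below the other basal libraries at 682 to 714 CPM. Both lie in the replicate with low oligodendrocyte markers, whose part was not tested. Srebf1 RNA was 168 CPM in DHPG replicate 3, above the others at 113 to 123 CPM, and its basal partner was the highest basal library. Srebf1 RPF was 40.5 CPM in basal replicate 2, below the others at 47.0 to 49.0 CPM, and its DHPG partner was the lowest DHPG library.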

How the results depend on the processing

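No member was called in RNA or TE under any alternative run, and in RPF 1 (Scd2) was called by ComBat with DESeq2 alone. That setting also called 1 pathway gene in RNA (Ptplad1) and 6 in RPF (Acly, Apoe, Lrp1, Nceh1, Npc1 and Tecr), against 0 for edgeR. It takes replicate effects out before the test without counting the degrees of freedom they use. DESeq2 with the replicate block gave no adjusted p in RPF for Sqle, Fdft1, Scd1 and Srebf1, so it could not call them. TE was not run with DESeq2 or ComBat. Without the replicate block no call changed, but small log2 fold changes turned direction: Hmgcs1 to 0.017 in RNA and -0.027 in TE, Sqle to 0.011 in RNA and Srebf1 to 0.019 in TE. Members that differed between replicates in RNA numbered 3 to 5 when a replicate was left out, 3 without replicate 3 and 3 without replicate 4. In RPF they numbered 4 to 7, with 4 without replicate 4. The share of all genes in these settings is not given here, so these counts cannot be read as particular to the members. Leaving out a replicate also turned log2 fold changes near 0, which then ranged from -0.030 to 0.012 for Hmgcs1 RPF (above 0 without replicates 1, 2 and 5), from -0.028 to 0.0098 for Sqle RNA (above 0 without 2 or 3), from -0.11 to 0.0031 for Scd2 TE (above 0 without 1) and from -0.064 to 0.027 for Srebf1 TE (above 0 without 4). The cause was not tested. With the median transcript length, the log2 RPF to RNA ratio of Fdft1 was 1.66 in place of 1.83. Depth limits Scd1 and Srebf1 most, with as few as 217 and 296 counts in a library.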
